A study of Homo sapiens with 14 samples.

Results

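The genes described here encode the nuclear-encoded subunits of oxidative phosphorylation (OXPHOS), the chain of 5 protein complexes in the inner mitochondrial membrane that burns NADH and succinate and makes ATP. Members were chosen by symbol: NDUFA, NDUFB, NDUFC, NDUFS and NDUFV names with a number for complex I, the SDH genes for complex II, names that begin with UQCR for complex III, names of the COX4 to COX8 families for complex IV and names that begin with ATP5 for complex V. With 2 pseudogenes left out, 86 of the 26760 genes listed for A549 were members, of which 37 belong to complex I, 4 to complex II, 9 to complex III, 17 to complex IV and 19 to complex V. The rule itself used no measured value, although it was chosen with earlier results of these data known.

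RNA was sequenced from 2 established human lung adenocarcinoma cell lines, A549 and H1792, each kept for 48 h in 0.1 µM AMG900, an inhibitor of the aurora kinases that drive mitosis, or in its solvent DMSO. A549, grown in DMEM, had 4 libraries with DMSO and 4 with AMG900, and H1792, grown in RPMI, had 3 of each. The labels give no genetic change to either line, and each line comes from 1 tumour. Since every library was made from a bulk culture, less RNA of a gene per cell cannot be told apart from fewer cells that make it, and p-values measure the spread between these libraries, because nothing states how separate the cultures were. The study used the lines to find the transcripts that respond to aurora kinase inhibition, and the comparison here asks how the respiratory genes moved.

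Complex I takes electrons from NADH, complex II takes them from succinate as part of the citric acid cycle, and both pass them by way of ubiquinone to complex III, from which cytochrome c carries them to complex IV and oxygen. Protons pumped by complexes I, III and IV drive complex V, the ATP synthase. A few subunits of complexes I, III, IV and V are encoded by mitochondrial DNA, and none of those genes was in the tables, so the values below concern the nuclear share of each complex. Promoters of the nuclear genes are known for sites of NRF1, of the ETS factor GABP and of YY1.

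Total counts were 4254644 to 18962883 per library in A549 and 42810734 to 79984064 in H1792. The A549 library of DMSO replicate 1 was the smallest and stood apart: it held 12584 CPM of the members in sum, against 10798 to 11049 CPM in the other DMSO libraries (CPM, counts scaled to library depth with the trimmed mean of M values within the line). Counts over the members without that library are therefore given beside the first results. Keratins KRT8 and KRT18 were at 3200.3 ± 492 and 1626 ± 57.6 CPM in A549 with DMSO (SD, n = 4) and at 456 ± 61.7 and 261 ± 19.6 CPM in H1792 (SD, n = 3), whereas NKX2-1, the lung lineage factor, was under 0.1 CPM on average in every group. H1792 also held 29.8 ± 2.29 CPM of DCN, a fibroblast marker, and 0.681 CPM of CDH1, which was at 22.9 CPM in A549. EPCAM, another epithelial marker, went the other way, at 3.4 CPM in H1792 and 0.301 CPM in A549 with DMSO. Of 6 epithelial and lung adenocarcinoma markers tested between the lines with DMSO, 4 were lower in H1792 and 1, EPCAM, was higher. The 10 fibroblast, endothelial and leukocyte markers summed to 59.0 to 85.9 CPM with DMSO and 149.8 to 172 CPM with AMG900 in A549, and to 145 to 177 CPM and 213 to 237 CPM in H1792, most of it CD68, which rose in both lines (log2 fold change 1.09 ± 0.10 SE, adjusted p = 5.96e-07 in A549 and log2 fold change 0.78 ± 0.07 SE, adjusted p = 1.86e-05 in H1792). Of the 8 tested in H1792, 3 rose and 2 fell, and with GC corrected 3 rose and 0 fell. The fibroblast markers DCN (log2 fold change -0.45 ± 0.08 SE, adjusted p = 0.000839) and LUM (log2 fold change -1.20 ± 0.20 SE, adjusted p = 0.000602) fell in H1792. The endothelial markers PECAM1 (log2 fold change 0.76 ± 0.15 SE, adjusted p = 0.00176) and CDH5 (log2 fold change 2.29 ± 0.48 SE, adjusted p = 0.00258) rose there, CDH5 at under 0.5 CPM. PDGFRB, another fibroblast marker, did not pass (log2 fold change 0.28 ± 0.12 SE, adjusted p = 0.0713). The part of these markers in the results was not tested.

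With AMG900, the respiratory genes of A549 moved in both directions by small steps. Of 78 members with enough counts to be tested, 11 rose and 7 fell at a false discovery rate of 0.01 (edgeR's quasi-likelihood test, Benjamini-Hochberg adjustment over all genes), and 60 did not pass. This is 23.1% of the members, against 35% of all 13174 genes tested. By direction, 14.1% of members rose against 17.2% of all genes, and 8.97% fell against 17.8%. The median log2 fold change of the members was 0.01, against -0.01 over all genes, and no called member moved by more than 1 on the log2 scale. The DMSO and AMG900 libraries did not overlap for 23 members (29.5%, against 43.9% of all genes). Without DMSO replicate 1, 24 rose and 10 fell, and all 18 of the calls made with that library were among these 34. Over the 8 fits that left out 1 library, 5 to 24 rose and 5 to 10 fell, with only 5 that rose without DMSO replicate 2 or 3 (11 and 12 of the 18 calls kept).

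In H1792, where libraries were deeper, 25 of 80 tested members rose, 13 fell and 42 did not pass. The called share was 47.5% of the members against 35.1% of all 15017 genes, with 31.2% of members rising against 16.2% of all genes and 16.2% falling against 18.8%. The members' median was 0.06 against 0.01 over all genes, and the groups did not overlap for 50 members (62.5%, against 59.7% of all genes). Leaving out 1 library at a time gave 19 to 35 that rose and 7 to 17 that fell, the fewest that fell (7) without AMG900 replicate 1 or DMSO replicate 3 and the most that rose (35) without DMSO replicate 1. COX7B, COX6B2 and UQCRHL were the 3 called members that moved by more than 1 on the log2 scale.

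**Figure D1:**
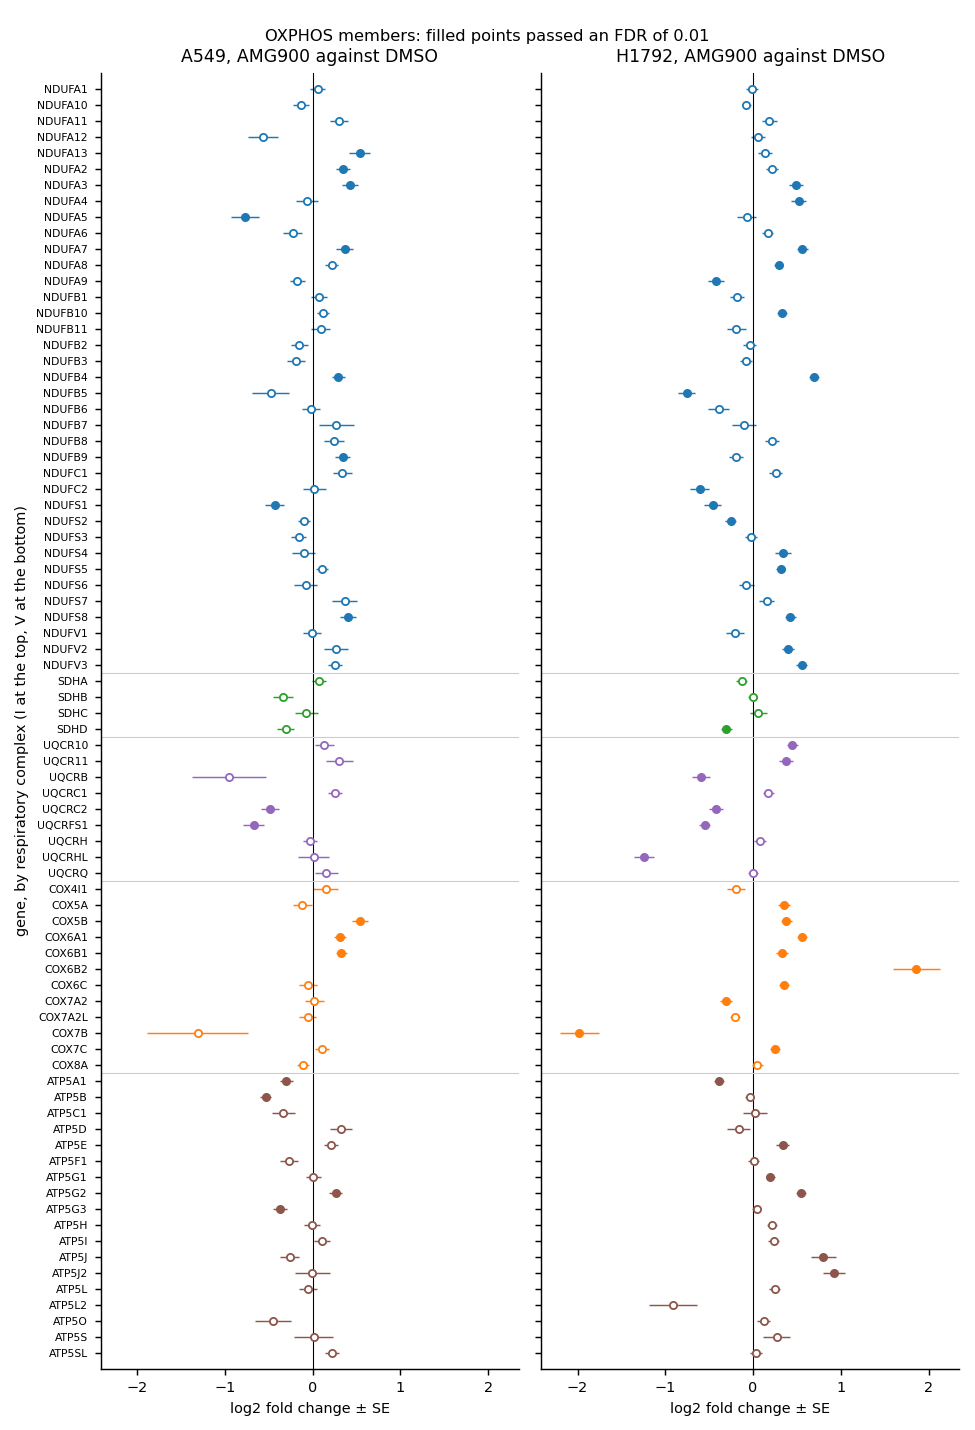
Log2 fold change with its standard error (horizontal axis) of every tested member (vertical axis, grouped by complex I to V) for AMG900 against DMSO in A549 (left, 4 against 4 libraries) and H1792 (right, 3 against 3). Filled points passed an FDR of 0.01: 11 rose and 7 fell in A549, 25 rose and 13 fell in H1792, and most of them lie within 1 of 0.

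Fold changes moved with base composition, weakly so among the members in H1792. Across genes, the log2 fold change and the GC percent of the transcript had a Spearman rho of 0.61 over the 78 members in A549 and of 0.22 over the 80 in H1792, beside 0.50 and 0.48 over all genes with an annotated transcript (a description, since genes share their libraries). Members that rose in A549 had a median GC of 55.2% and a median transcript length of 580.0 bases, and those that fell had 45.2% and 2102 bases. In H1792 the medians were 51.0% and 651 bases for those that rose and 45.2% and 1415 bases for those that fell. When each library's trend with GC was removed before the fit, 7 members rose and 5 fell in A549, and 3 of the 18 earlier calls (ATP5B, COX5B and NDUFB4) were among them. In H1792 the same step gave 28 that rose and 20 that fell, with 28 of the 38 earlier calls kept. Whether the trend belongs to the cells or to the libraries was not tested, so the corrected value is printed where it ends a call.

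Part of the calls were shared between the lines. Among the 78 members tested in both, 8 rose in both lines (10.3%, against 7.29% of all 12625 genes tested in both), 4 fell in both (5.13% against 9.31%), and none was called in opposite directions (0%, against 1.17% of all genes). The 8 that rose were the complex I subunits NDUFA3, NDUFA7, NDUFB4 and NDUFS8, the complex IV subunits COX5B, COX6A1 and COX6B1, and ATP5G2 of complex V. The 4 that fell were NDUFS1 of complex I, UQCRC2 and UQCRFS1 of complex III, and ATP5A1 of complex V. After the correction for GC only NDUFB4 and COX5B of these 12 were still called in both lines, and with transcript length also corrected NDUFB4, COX5B and UQCRC2 were. With total counts, and with a replicate block, 5 of the 8 still rose in both, NDUFA7, NDUFB4 and ATP5G2 being lost, and all 4 still fell. When 1 library at a time was left out, COX5B, COX6A1, NDUFA3 and UQCRFS1 kept their calls in all 8 fits of A549 and all 6 of H1792, with the same direction throughout. In A549 the call was kept in 1 of 8 fits for NDUFA7 (largest adjusted p = 0.0352), 2 for ATP5G2 (0.0265), 3 for NDUFB4 (0.0219, lost without AMG900 replicate 1, 2 or 3 or DMSO replicate 2 or 3), 3 for NDUFS8 (0.0112), 5 for NDUFS1 (0.0148) and 5 for ATP5A1 (0.015). In H1792 it was kept in 3 of 6 fits for COX6B1 (0.0164), NDUFS1 (0.0168) and UQCRC2 (0.015), in each case lost without AMG900 replicate 1 or 2 or DMSO replicate 3.

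The 100 bases just before the start of transcription are shown for all 12, to set the promoters of members that rose beside those of members that fell. The 8 shown first rose in both lines, and 4 of them (COX5B, COX6A1, COX6B1 and ATP5G2) have a match to a searched motif in this stretch. NDUFA3, NDUFA7, NDUFB4 and NDUFS8 have none there, nor do the 4 that fell. All are from RefSeq, build GRCh38.p14, read 5′ to 3′ on the strand of the gene, with matches in capitals. The motifs were GCGCATGCG for NRF1, CCGGAAG for ETS factors such as GABP and ATGGCGGC for YY1, searched on both strands (the NRF1 motif is nearly its own reverse complement, so its matches on both strands can overlap).
COX5B, chr2:97645962-97646061, plus strand, ETS match: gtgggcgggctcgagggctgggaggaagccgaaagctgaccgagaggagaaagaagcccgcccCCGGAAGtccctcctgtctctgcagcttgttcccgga
COX6A1, chr12:120438013-120438112, plus strand, ETS match on the opposite strand: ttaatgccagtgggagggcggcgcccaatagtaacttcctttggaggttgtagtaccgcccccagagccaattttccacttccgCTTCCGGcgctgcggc
COX6B1, chr19:35648223-35648322, plus strand, ETS match on the opposite strand: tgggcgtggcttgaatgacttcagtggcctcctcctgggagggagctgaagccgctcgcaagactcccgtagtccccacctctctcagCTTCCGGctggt
ATP5G2, chr12:53676084-53676183, minus strand, NRF1 match on the opposite strand: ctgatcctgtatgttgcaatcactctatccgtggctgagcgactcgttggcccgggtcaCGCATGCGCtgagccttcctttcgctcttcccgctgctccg
NDUFA3, chr19:54102755-54102854, plus strand: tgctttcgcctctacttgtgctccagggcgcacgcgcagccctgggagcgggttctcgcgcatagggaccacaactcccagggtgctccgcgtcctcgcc
NDUFA7, chr19:8321376-8321475, minus strand: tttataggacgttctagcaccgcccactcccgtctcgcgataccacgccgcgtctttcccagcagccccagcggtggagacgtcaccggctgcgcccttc
NDUFB4, chr3:120596236-120596335, plus strand: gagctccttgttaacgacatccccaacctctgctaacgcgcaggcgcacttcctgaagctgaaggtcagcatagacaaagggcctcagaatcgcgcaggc
NDUFS8, chr11:68030581-68030680, plus strand: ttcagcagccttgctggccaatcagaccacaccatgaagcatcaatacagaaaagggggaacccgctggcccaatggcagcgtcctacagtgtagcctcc
NDUFS1, chr2:206159445-206159544, minus strand: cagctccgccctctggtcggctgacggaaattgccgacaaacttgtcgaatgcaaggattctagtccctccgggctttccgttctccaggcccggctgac
UQCRC2, chr16:21953261-21953360, plus strand: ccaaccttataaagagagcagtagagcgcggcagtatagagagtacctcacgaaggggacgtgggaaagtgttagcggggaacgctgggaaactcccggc
UQCRFS1, chr19:29213152-29213251, minus strand: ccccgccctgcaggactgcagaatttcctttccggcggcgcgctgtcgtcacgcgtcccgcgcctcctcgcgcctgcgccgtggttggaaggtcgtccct
ATP5A1, chr18:46104228-46104327, minus strand: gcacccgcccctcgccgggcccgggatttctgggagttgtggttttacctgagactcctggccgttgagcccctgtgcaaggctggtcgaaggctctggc

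Over the window from 250 bases before to 50 after the start, 67 of the 86 members had an entry in the promoter table. An NRF1 match was in 10 of the 67 (14.9%, against 1.9% of 34796 distinct promoters), an ETS match in 19 (28.4% against 10.2%) and a YY1 match in 12 (17.9% against 3.0%). By complex, YY1 matches were in 9 of 31 complex I promoters and in none of 14 for complex IV or 12 for complex V, whereas NRF1 matches were in 4 of 12 for complex V and 4 of 31 for complex I. Of the 8 members that rose in both lines, 7 held at least 1 of the 3 motifs (NRF1 in 3, ETS in 3, YY1 in 2), and of the 4 that fell 1 did, NDUFS1, with an ETS and a YY1 match. At least 1 motif was in 32 of all 67 members (47.8%) and in 13.9% of all promoters. By the calls in H1792 alone the shares lay closer together, at 12 of 21 members that rose (57.1%), 3 of 8 that fell (37.5%) and 17 of 35 that were not called (48.6%). These counts describe letters in a window and say nothing about binding.

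Complex I, the NADH dehydrogenase, had 37 tested members in each line. In A549, 7 rose, 2 fell and 28 did not pass, where 17.2% of all genes rose and 17.8% fell. In H1792, 11 rose, 5 fell and 21 did not pass, where 16.2% of all genes rose and 18.8% fell. With GC corrected, 3 rose and 3 fell in A549 and 13 rose and 9 fell in H1792. With GC and length corrected, 2 rose and 6 fell in A549 and 10 rose and 11 fell in H1792. Median changes of 0.07 in A549 and 0.06 in H1792 on the log2 scale lay near 0. Together the complex I members summed to 3612 ± 390.4 CPM with DMSO and 3952 ± 136 CPM with AMG900 in A549 (SD, n = 4) and to 5863 ± 617 and 6155 ± 46.9 CPM in H1792 (SD, n = 3), and the groups overlapped in both lines.

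The largest called rise of complex I in A549 was NDUFA13 (chr19:19626545-19639863 of GRCh37), a subunit of the membrane arm also known as GRIM-19. Its level was 149, 95.3, 107 and 108 CPM with DMSO and 148, 156, 168 and 187 CPM with AMG900 (log2 fold change 0.54 ± 0.12 SE, adjusted p = 0.00192). DMSO replicate 1 lay within the range of the AMG900 libraries and the other 3 DMSO libraries lay below it. With GC corrected the change was 0.14, adjusted p = 0.243. In H1792 NDUFA13 was at 180.2 ± 23.9 and 198 ± 2.39 CPM (SD, n = 3) and did not pass (log2 fold change 0.13 ± 0.08 SE, adjusted p = 0.198), and with GC corrected it turned to -0.19, adjusted p = 0.0057.

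NDUFA5 (chr7:123177051-123197958), an accessory subunit of the matrix arm, showed the largest called fall of complex I in A549. It was at 20.9, 18.8, 16.7 and 15.2 CPM with DMSO and 10.2, 11.8, 11.6 and 7.76 CPM with AMG900 (log2 fold change -0.77 ± 0.16 SE, adjusted p = 0.00117), and the groups did not overlap. Its transcript has a GC content of 34.9%, the lowest among the tested members, and with GC corrected the change was -0.17, adjusted p = 0.333. In H1792 its change was -0.07 ± 0.11 (SE; adjusted p = 0.594), and with GC corrected it turned to 0.71, adjusted p = 2.74e-05.

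NDUFB4 (chr3:120315175-120321354), a small membrane arm subunit, was the largest called rise of complex I in H1792. There it was at 162, 177 and 171 CPM with DMSO and 292, 274 and 259.7 CPM with AMG900 (log2 fold change 0.70 ± 0.06 SE, adjusted p = 1.22e-05). In A549 it was at 173, 196, 183 and 205 CPM with DMSO and 235, 227, 252 and 216 CPM with AMG900 (log2 fold change 0.29 ± 0.07 SE, adjusted p = 0.0049). All AMG900 libraries of each line lay above all DMSO libraries of that line, and with GC corrected the changes were 0.57, adjusted p = 4.41e-06 in A549 and 0.90, adjusted p = 8.32e-07 in H1792.

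NDUFA3, NDUFA7 and NDUFS8 also rose in both lines. NDUFS8, which carries iron-sulfur clusters next to the ubiquinone site, went from 176 ± 19.6 to 231 ± 25.3 CPM in A549 (SD, n = 4, adjusted p = 0.00242) and from 196 ± 15.3 to 263 ± 9.21 CPM in H1792 (SD, n = 3, adjusted p = 0.000356). NDUFA3, a membrane arm subunit, had log2 fold changes of 0.43 ± 0.09 and 0.49 ± 0.08 (SE; adjusted p = 0.00182 and 0.000513). For NDUFA7, a subunit of the matrix arm, they were 0.36 ± 0.10 and 0.56 ± 0.06 (SE; adjusted p = 0.00752 and 6.01e-05). With GC corrected, NDUFS8 was at 0.00042, adjusted p = 0.996 in A549 and 0.10, adjusted p = 0.0558 in H1792, and NDUFA3 and NDUFA7 lost their calls in A549 only (0.07, adjusted p = 0.456 and 0.18, adjusted p = 0.164).

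NDUFS1 (chr2:206979541-207024233), the largest subunit of complex I and a carrier of iron-sulfur clusters, fell in both lines. Its level in A549 was 49.6, 52.2, 45.4 and 42.7 CPM with DMSO and 32.9, 36.1, 39.6 and 31.4 CPM with AMG900 (log2 fold change -0.43 ± 0.10 SE, adjusted p = 0.00336). The H1792 libraries held 38.1, 47 and 45.1 CPM with DMSO and 28.9, 31.1 and 34.6 CPM with AMG900 (log2 fold change -0.46 ± 0.09 SE, adjusted p = 0.00221). The groups did not overlap in either line, and with GC corrected neither change passed (-0.16, adjusted p = 0.166 in A549 and -0.26, adjusted p = 0.0109 in H1792).

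NDUFB5 (chr3:179322478-179345435), a membrane arm subunit, was the largest called fall of complex I in H1792, at 20.1, 18.3 and 16.8 CPM with DMSO and 9.86, 11.7 and 11.2 CPM with AMG900 (log2 fold change -0.76 ± 0.10 SE, adjusted p = 0.000135). With GC corrected it was -0.35, adjusted p = 0.0227. In A549 it was at 23, 11.1, 12.4 and 11.3 CPM with DMSO and 9.16, 8.35, 11.3 and 10.7 CPM with AMG900, where DMSO replicate 1 was far above the other DMSO libraries and the change did not pass (log2 fold change -0.48 ± 0.21 SE, adjusted p = 0.0775).

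Complex II, succinate dehydrogenase, has 4 subunits, all nuclear: SDHA and SDHB hold the catalytic site and the iron-sulfur clusters, and SDHC and SDHD anchor them in the membrane. None passed in A549, where the changes ranged from -0.34 to 0.07 on the log2 scale. In H1792 SDHD fell, and the others ranged from -0.13 to 0.06. SDHD was at 46.6, 50.4 and 48.2 CPM with DMSO and 38.2, 40.5 and 38.9 CPM with AMG900 in H1792 (log2 fold change -0.30 ± 0.06 SE, adjusted p = 0.00202), a call kept in 3 of 6 fits without 1 library, and with GC corrected its change was -0.18, adjusted p = 0.0119. In A549 SDHD was at 32.4, 37, 40.7 and 38.1 CPM with DMSO and 30.9, 29.2, 29.3 and 31.2 CPM with AMG900. The groups did not overlap there either, although the change did not pass (log2 fold change -0.31 ± 0.10 SE, adjusted p = 0.0174). In sum the 4 genes were at 404 ± 11.5 CPM with DMSO and 385 ± 11.2 CPM with AMG900 in A549 (SD, n = 4), and at 774 ± 31.3 and 728 ± 7.93 CPM in H1792 (SD, n = 3). The groups overlapped in A549 and not in H1792. With scaling by total counts alone they overlapped in neither line, with ratios of the means of 0.903 in A549 and 0.8998 in H1792.

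Complex III, the cytochrome bc1 complex, was split between its subunits in H1792. Of 9 members, 2 fell and none rose in A549, and 4 fell and 2 rose in H1792. Of all genes, 17.8% fell and 17.2% rose in A549, and 18.8% fell and 16.2% rose in H1792. With GC corrected, 0 fell and 0 rose in A549, and 3 fell and 1 rose in H1792. With GC and length corrected, 1 fell and 0 rose in A549, and 5 fell and 1 rose in H1792. UQCRFS1 (chr19:29696227-29704058), the Rieske iron-sulfur protein through which electrons leave ubiquinol, fell in both lines. Its level in A549 was 297, 232, 199 and 196 CPM with DMSO and 149.6, 126, 163.4 and 138 CPM with AMG900 (log2 fold change -0.67 ± 0.12 SE, adjusted p = 0.00038). The H1792 libraries held 129.7, 123 and 129 CPM with DMSO and 81.1, 85.7 and 93.5 CPM with AMG900 (log2 fold change -0.55 ± 0.06 SE, adjusted p = 6.57e-05). Every AMG900 library was below every DMSO library of its line. With GC corrected the fall was -0.37, adjusted p = 0.0167 in A549 and -0.33, adjusted p = 0.00133 in H1792.

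UQCRC2 (chr16:21964609-21994981), one of the pair of core proteins on the matrix side, showed the same direction. It was at 142, 151, 125.05 and 124 CPM with DMSO and 110.5, 81.1, 107 and 87.3 CPM with AMG900 in A549 (log2 fold change -0.49 ± 0.11 SE, adjusted p = 0.00159). In H1792 it was at 74.2, 93.3 and 86.3 CPM with DMSO and 60.6, 61.5 and 67.1 CPM with AMG900 (log2 fold change -0.42 ± 0.08 SE, adjusted p = 0.00191). With GC corrected its change in A549 was -0.29, adjusted p = 0.0196, and with GC and length corrected it was -0.36, adjusted p = 0.00426. UQCRC1, its partner, did not pass in either line (0.26 ± 0.08 and 0.17 ± 0.06, SE, adjusted p = 0.0165 and 0.0441).

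UQCR10, a small subunit next to the Rieske protein, rose in H1792 from 118, 122 and 123 CPM with DMSO to 174, 169 and 153 CPM with AMG900 (log2 fold change 0.45 ± 0.06 SE, adjusted p = 0.000164). In A549 its change was 0.13 ± 0.11 (SE, adjusted p = 0.326). UQCRB, a ubiquinone-binding subunit, fell in H1792 from 18.4 ± 2.15 to 12.1 ± 1.13 CPM (SD, n = 3, adjusted p = 0.0011), and with GC corrected was at -0.14, adjusted p = 0.196. In A549 its DMSO libraries ran from 16.3 to 97.1 CPM, with replicate 1 the highest, and the change did not pass (log2 fold change -0.96 ± 0.42 SE, adjusted p = 0.0733). Complex III in sum was at 1219 ± 186 and 1175 ± 39.1 CPM in A549 (SD, n = 4) and at 1666 ± 104 and 1724 ± 0.674 CPM in H1792 (SD, n = 3), with overlap in both.

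UQCRHL (chr1:16133664-16135843) is a near-identical copy of UQCRH, the hinge protein of complex III, so the way reads were split between the pair is uncertain. In H1792 UQCRHL was at 132, 99.1 and 105 CPM with DMSO and 41.3, 50.2 and 51 CPM with AMG900 (log2 fold change -1.24 ± 0.11 SE, adjusted p = 1.64e-05), and the groups did not overlap. UQCRH itself was at 333 ± 28.6 and 351 ± 12.2 CPM (SD, n = 3, adjusted p = 0.348). With the counts of both copies added, a step chosen after the data were seen, the change of the sum was -0.16 (adjusted p = 0.0906). In A549 UQCRHL was at 16.7, 17.7, 23.3 and 17.7 CPM with DMSO and 19.5, 20.6, 12.8 and 24 CPM with AMG900, and did not pass (log2 fold change 0.01 ± 0.18 SE, adjusted p = 0.961).

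Complex IV, cytochrome c oxidase, had more rising than falling members in both lines. In H1792, 7 of 12 tested members rose and 2 fell, with a median log2 fold change of 0.29. Of all genes, 16.2% rose and 18.8% fell there. With GC corrected, 6 rose and 4 fell in H1792, and with GC and length corrected 5 rose and 4 fell. In A549, 3 of 11 rose and none fell, with a median of 0.02, against 17.2% and 17.8% of all genes. With GC corrected, 3 rose and 1 fell in A549, and with GC and length corrected 2 rose and 1 fell. The summed level was 2623 ± 284 CPM with DMSO and 2924 ± 63.0 CPM with AMG900 in A549 (SD, n = 4), where DMSO replicate 1, at 3042 CPM, was above every AMG900 library. In H1792 it was 2792.5 ± 232 CPM and 3119 ± 26.5 CPM (SD, n = 3), with no overlap, whereas with scaling by total counts alone the groups overlapped (up to 3043 CPM with DMSO and from 3033 CPM with AMG900).

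COX5B (chr2:98262525-98264846), a zinc-binding subunit on the matrix side, rose in both lines and kept its call under all 18 settings in A549 and all 16 in H1792. Its level in A549 was 175, 131, 137 and 148 CPM with DMSO and 199.9, 196, 223 and 233 CPM with AMG900 (log2 fold change 0.54 ± 0.09 SE, adjusted p = 0.000275). H1792 had 350.0, 301 and 316 CPM with DMSO and 441, 418 and 399 CPM with AMG900 (log2 fold change 0.38 ± 0.07 SE, adjusted p = 0.000809). No AMG900 library overlapped the DMSO libraries. COX6B1, which joins the monomers of the dimer, went from 610.4 ± 24.7 to 765 ± 43.9 CPM in A549 (SD, n = 4) and from 574 ± 53.1 to 721 ± 23.1 CPM in H1792 (SD, n = 3). Both changes passed (adjusted p = 0.000693 and 0.00214), and neither did with GC corrected (0.11, adjusted p = 0.154 and 0.12, adjusted p = 0.0417). COX6A1, the liver-type form of a regulatory subunit, had log2 fold changes of 0.31 ± 0.06 and 0.56 ± 0.05 (SE, adjusted p = 0.00106 and 2.2e-05), and with GC corrected 0.20, adjusted p = 0.0268 in A549.

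**Figure D2:**
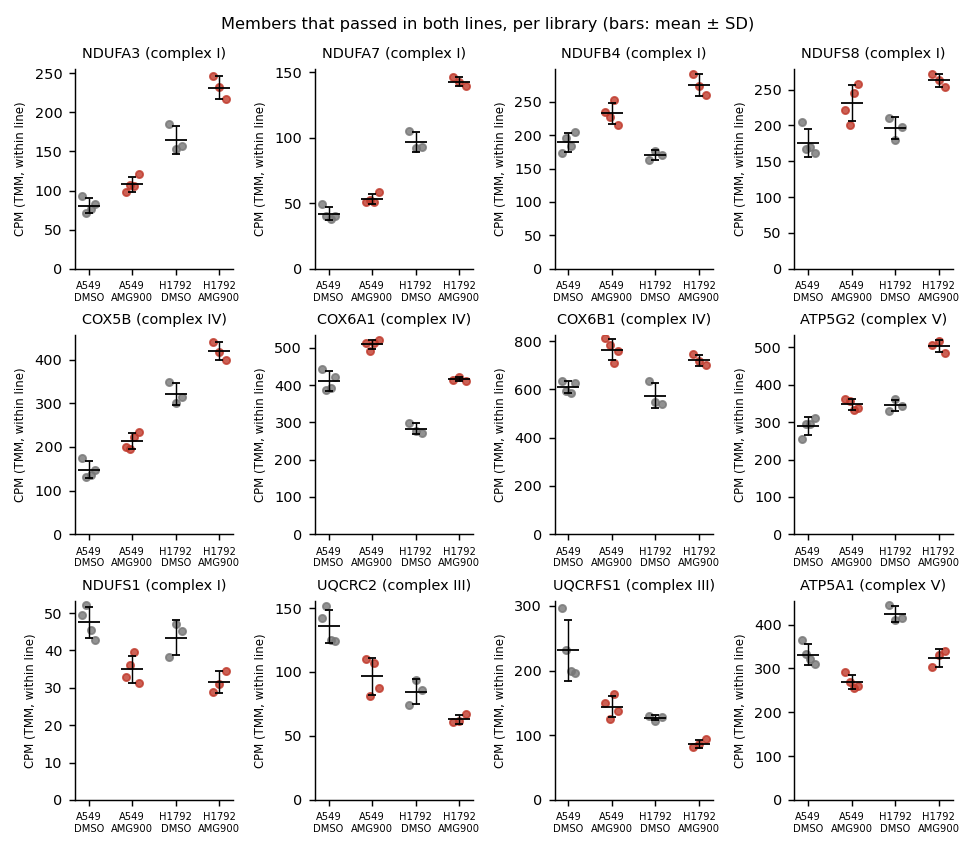
CPM per library (vertical axes from 0) for the 12 members called in both lines, with DMSO in grey, AMG900 in red and bars for mean ± SD (n = 4 in A549, n = 3 in H1792). The 8 genes that rose come first and the 4 that fell last, for example COX5B at 131 to 175 CPM with DMSO and 196 to 233 CPM with AMG900 in A549.

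COX7B (chrX:77154937-77162873), a small subunit encoded on chromosome X, had the largest fall of all members in H1792. Its level there was 10.2, 13.3 and 19.4 CPM with DMSO and 3.72, 2.9 and 4.17 CPM with AMG900 (log2 fold change -1.98 ± 0.22 SE, adjusted p = 5.39e-05). In A549 it was at 182, 61.1, 24 and 13.2 CPM with DMSO and 30.2, 18.5, 38.2 and 18.4 CPM with AMG900. The DMSO libraries of A549 thus ranged over more than an order of magnitude, replicate 1 being the highest, and the change did not pass (log2 fold change -1.31 ± 0.58 SE, adjusted p = 0.0736). COX7A2, the liver-type form of another small subunit, fell in H1792 from 92.7 ± 4.56 to 74.7 ± 5.65 CPM (SD, n = 3, adjusted p = 0.0034), a call kept in 3 of 6 fits without 1 library, and did not pass in A549 (0.02 ± 0.11, SE, adjusted p = 0.895).

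Several complex IV subunits exist as tissue forms. The ubiquitous forms COX4I1, COX6A1, COX6B1, COX7A2 and COX8A were all tested in both lines. The tissue-restricted forms COX4I2, COX6A2, COX7A1, COX7B2 and COX8C were at 0 to 7 counts in every library and were not tested. COX6B2, known as the testis form of COX6B1, was also low, at 12 to 26 counts with DMSO and 70 to 96 counts with AMG900 in H1792. That is 0.397, 0.451 and 0.274 CPM with DMSO and 1.23, 1.4 and 1.5 CPM with AMG900, the largest called rise of all members (log2 fold change 1.86 ± 0.27 SE, adjusted p = 0.000295), on a level far below that of COX6B1, whose mean there was 574 CPM with DMSO. In A549 COX6B2 had 0 to 6 counts with DMSO and 8 to 15 counts with AMG900 and was below the count filter. COX4I1 (0.15 ± 0.14 and -0.20 ± 0.10, SE) and COX8A (-0.11 ± 0.07 and 0.05 ± 0.06, SE) passed in neither line. With GC corrected COX8A was called as falling in both lines (-0.21, adjusted p = 0.000985 in H1792), and so it was with GC and length corrected.

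The summed level of complex V, the ATP synthase, differed in direction between the lines, a difference that was not tested. In A549 its members summed to 3435, 3442, 3496 and 3506 CPM with DMSO and to 3264, 3093, 3031 and 2991 CPM with AMG900. In H1792 they summed to 3365, 3268 and 3245 CPM with DMSO and to 3592, 3657 and 3633 CPM with AMG900. All AMG900 libraries were thus lower in A549 and higher in H1792, with ratios of the means of 0.892 and 1.10, and with scaling by total counts alone the ratios were 0.846 and 1.05, again without overlap. Most of the difference in A549, between means of 3469.9 ± 36.6 and 3095 ± 120.3 CPM (SD, n = 4), lay in ATP5B, whose means were 1035 and 716 CPM. In H1792 the largest rises within the sum were those of ATP5J2 (158 to 239 CPM with DMSO, 341 to 408 CPM with AMG900) and ATP5G2 (331 to 361 and 486 to 519 CPM). Together these were about as large as the rise of the whole sum, so the rise was not shared by all members. By gene, 1 of 17 tested members rose and 3 fell in A549 with a median log2 fold change of -0.0081, and 5 of 18 rose and 1 fell in H1792 with a median of 0.16. Of all genes, 17.2% rose and 17.8% fell in A549, and 16.2% rose and 18.8% fell in H1792. With GC corrected, 1 member rose and 1 fell in A549, and 8 rose and 3 fell in H1792. With GC and length corrected, 1 rose and 2 fell in A549, and 6 rose and 3 fell in H1792.

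**Figure D3:**
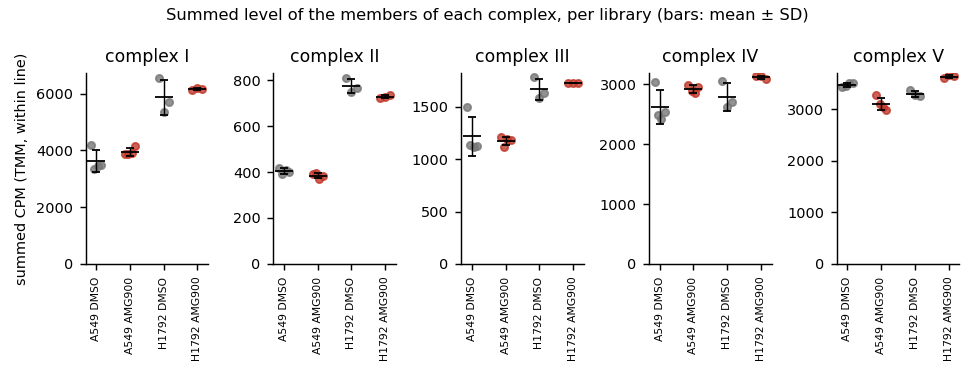
Summed CPM of the members of complexes I to V per library (vertical axes from 0), with DMSO in grey, AMG900 in red and bars for mean ± SD (n = 4 in A549, n = 3 in H1792). Complex V lies lower with AMG900 in A549 (2991 to 3264 against 3435 to 3506 CPM) and higher in H1792 (3592 to 3657 against 3245 to 3365 CPM), and DMSO replicate 1 of A549 is the high point of complexes I, III and IV.

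ATP5B (chr12:57031959-57039768), the catalytic beta subunit, had the largest called fall of complex V in A549. It was at 979, 1031, 1068 and 1062 CPM with DMSO and 754, 748, 693 and 667 CPM with AMG900 in A549 (log2 fold change -0.53 ± 0.06 SE, adjusted p = 8.35e-06), where the groups did not overlap. H1792 had 548.9, 605 and 581 CPM with DMSO and 546, 565 and 578 CPM with AMG900 (log2 fold change -0.04 ± 0.05 SE, adjusted p = 0.57). The fall in A549 kept its call under all 18 settings. ATP5A1 (chr18:43660214-43684300), the alpha subunit that alternates with beta in the head of the enzyme, fell in both lines. Its level in A549 was 364, 333, 321 and 309 CPM with DMSO and 292, 270.1, 256 and 259 CPM with AMG900 (log2 fold change -0.30 ± 0.07 SE, adjusted p = 0.00311). The H1792 libraries held 445, 412 and 416 CPM with DMSO and 302, 330.1 and 341 CPM with AMG900 (log2 fold change -0.39 ± 0.06 SE, adjusted p = 0.000389). With GC corrected its change in A549 was -0.21, adjusted p = 0.0344.

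The c-ring, the rotor that protons turn, is built from 1 mature protein encoded by the 3 genes ATP5G1, ATP5G2 and ATP5G3. ATP5G2 rose in both lines, from 289 ± 24.2 to 348 ± 14.5 CPM in A549 (SD, n = 4, adjusted p = 0.0077) and from 345 ± 15.2 to 504 ± 16.3 CPM in H1792 (SD, n = 3, adjusted p = 2.43e-05). With GC corrected its change in A549 was 0.05, adjusted p = 0.51. ATP5G3 fell in A549 from 184 ± 17.7 to 141 ± 9.34 CPM (SD, n = 4, adjusted p = 0.00154) and was at 168 ± 4.24 and 173 ± 6.48 CPM in H1792 (SD, n = 3, adjusted p = 0.529). With GC corrected the change of ATP5G3 in A549 was -0.31, adjusted p = 0.0177. ATP5G1 did not pass in A549 (log2 fold change 0.01 ± 0.08 SE, adjusted p = 0.948) and rose in H1792 just inside the threshold (log2 fold change 0.19 ± 0.05 SE, adjusted p = 0.00999). Its call was kept in 2 of 6 fits without 1 library. With GC and length corrected, its change in H1792 was -0.0023, adjusted p = 0.977.

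ATP5J2 (chr7:99046098-99063809), a small membrane subunit, was the largest called rise of complex V in H1792, at 158, 239 and 195 CPM with DMSO and 408, 375 and 341 CPM with AMG900 (log2 fold change 0.93 ± 0.13 SE, adjusted p = 0.000178). In A549 it was at 119, 272, 281 and 306 CPM with DMSO and 279.8, 220.2, 274 and 212 CPM with AMG900, with DMSO replicate 1 the lowest, and did not pass (log2 fold change -0.0023 ± 0.20 SE, adjusted p = 0.994). Its exons are shared with the read-through transcript ATP5J2-PTCD1, which had 0 to 8 counts per library and was not tested.

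The difference between the lines was tested directly as an interaction, over 80 members. AMG900 moved 5 of them differently at an FDR of 0.01 (6.25%, against 14.5% of all 14769 genes), 2 with a higher (2.5%, against 5.37% of all genes) and 3 with a lower log2 fold change in H1792 (3.75% against 9.17%). ATP5B (0.42 ± 0.09, SE, adjusted p = 0.0014) and ATP5J (0.99 ± 0.19, SE, adjusted p = 0.00063) were higher. UQCRHL (-1.32 ± 0.23, SE, adjusted p = 0.000343), NDUFC2 (-0.71 ± 0.18, SE, adjusted p = 0.00661) and NDUFB9 (-0.61 ± 0.13, SE, adjusted p = 0.00206) were lower. With GC corrected the interactions were 0.52 (adjusted p = 3.08e-05) for ATP5B, 1.04 (adjusted p = 7.54e-05) for ATP5J, -1.25 (adjusted p = 0.000543) for UQCRHL, -0.63 (adjusted p = 0.0176) for NDUFC2 and -0.51 (adjusted p = 0.0152) for NDUFB9. The median interaction over all genes was -0.10. Without A549 DMSO replicate 1, 6 members were higher and 9 lower.

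ATP5J, which encodes coupling factor 6 of the stalk that holds the ATP synthase head, was at 32.2, 38.8, 37.4 and 36.4 CPM with DMSO and 31.4, 27.9, 35.3 and 26.9 CPM with AMG900 in A549 (log2 fold change -0.26 ± 0.11 SE, adjusted p = 0.0641). In H1792 it was at 22.7, 36.5 and 28.6 CPM with DMSO and 55.1, 50.9 and 46.5 CPM with AMG900, without overlap (log2 fold change 0.80 ± 0.14 SE, adjusted p = 0.000986). NDUFC2, a membrane arm subunit of complex I, fell in H1792 from 10.7, 13.6 and 12.1 CPM to 7.96, 8.53 and 7.33 CPM (log2 fold change -0.61 ± 0.11 SE, adjusted p = 0.00117). In A549 its level was 18.8, 13.7, 14.9 and 14.4 CPM with DMSO and 14.5, 16.7, 14.5 and 16 CPM with AMG900, and did not pass (log2 fold change 0.02 ± 0.13 SE, adjusted p = 0.914). NDUFB9, another membrane arm subunit, rose in A549 from 244, 189, 199 and 205 CPM to 261, 281, 235 and 282 CPM (log2 fold change 0.34 ± 0.09 SE, adjusted p = 0.00477), with overlap of the groups. That call was kept in 2 of 8 fits without 1 library, and with GC corrected the change was 0.30, adjusted p = 0.0244. In H1792 it was at 516, 405 and 418 CPM with DMSO and 379, 393 and 399.7 CPM with AMG900 and did not pass (log2 fold change -0.19 ± 0.08 SE, adjusted p = 0.0743).

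**Figure D4:**
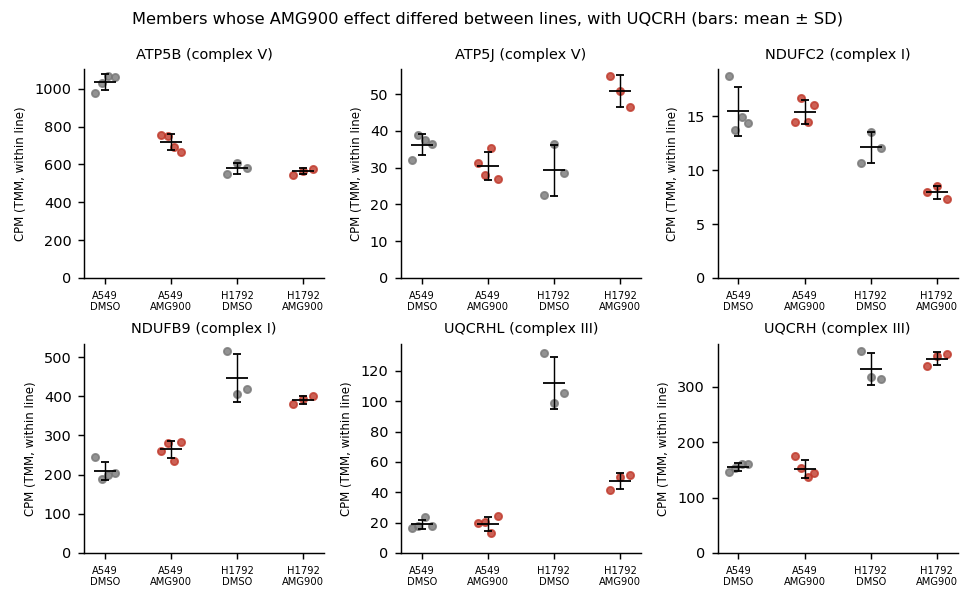
CPM per library (vertical axes from 0) of the 5 members with a called interaction and of UQCRH, with DMSO in grey, AMG900 in red and bars for mean ± SD (n = 4 in A549, n = 3 in H1792). The AMG900 libraries of ATP5B lie below DMSO without overlap in A549, those of ATP5J lie above it without overlap in H1792, and the log2 interactions are 0.42 and 0.99.

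Some members have a name that does not give their role. NDUFA4, now counted as a subunit of complex IV, rose in H1792 from 107 ± 14.1 to 153 ± 3.22 CPM (SD, n = 3, adjusted p = 0.000547) and did not pass in A549 (log2 fold change -0.06 ± 0.12 SE, adjusted p = 0.695). COX7A2L, a supercomplex assembly factor, did not pass in A549 (log2 fold change -0.06 ± 0.10 SE, adjusted p = 0.664) or in H1792 (log2 fold change -0.21 ± 0.06 SE, adjusted p = 0.0155). ATP5SL, an assembly factor of complex I, was at 0.22 ± 0.08 in A549 and 0.03 ± 0.07 in H1792 (SE, adjusted p = 0.0299 and 0.713). ATP5S, a low gene at 4.99 ± 0.905 CPM in A549 with DMSO (SD, n = 4), did not pass in either line (adjusted p = 0.974 and 0.156). ATP5L2, a copy of ATP5L that shares its sequence, had 2 to 9 counts in A549 and was at -0.92 ± 0.27 in H1792 (SE, adjusted p = 0.0171). Without the 6 members that are no subunit (NDUFA4 was kept as one), the numbers that rose or fell with AMG900 within each line were the same with 1 exception. In H1792, 12 in place of 13 fell, UQCRHL being the difference. UQCRHL was also among the members called lower in the interaction. Between the lines with DMSO, UQCRHL was among those called higher in H1792 and COX7A2L among those called lower.

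Levels with DMSO were compared per transcript length (RPKM, CPM on a scale shared by both lines, divided by the transcript length in kilobases). COX6B1 was the most abundant member in both lines, at 1195 ± 49.3 RPKM in A549 (SD, n = 4) and 1205 ± 113 RPKM in H1792 (SD, n = 3). In A549 it was followed by COX6A1 at 731 ± 46.7 and ATP5J2 at 725 ± 257 RPKM (SD, n = 4), which lay within each other's spread. In H1792 COX4I1 at 1079.5 ± 189 and NDUFV1 at 876 ± 156 RPKM (SD, n = 3) came next, and the SD intervals of neighbours in this order overlapped. The tested members had a median of 118 RPKM in A549 and 171 RPKM in H1792.

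Between the lines with DMSO, 36 of 80 members were higher in H1792 and 18 lower (67.5% called, against 66.1% of all 14769 genes, with 45% higher against 34.2% and 22.5% lower against 31.9%). The line and the sequencing table cannot be told apart here, since each line has its own. NDUFV1, the flavoprotein subunit at which NADH is oxidised, differed most, at 117 ± 17.4 RPKM in A549 and 876 ± 156 RPKM in H1792 (log2 difference 2.91 ± 0.11 SE, adjusted p = 1.85e-14). ATP5D, the delta subunit of the ATP synthase stalk, was also higher in H1792 (116 ± 24.4 against 658 ± 153 RPKM, log2 difference 2.53 ± 0.14 SE, adjusted p = 5.06e-12). COX7B was lower (103 ± 113 against 22.7 ± 7.4 RPKM, log2 difference -2.08 ± 0.57 SE, adjusted p = 0.00281), with the wide A549 range given above. By complex, 19 of 37 members of complex I, 3 of 4 of complex II and 5 of 9 of complex III were higher in H1792, against 3 of 12 of complex IV and 6 of 18 of complex V. With GC and length corrected, 21 members were higher and 34 lower, so the direction of the balance depends on that step, whereas NDUFV1 and ATP5D stayed higher (log2 differences 2.57 and 1.75).

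**Figure D5:**
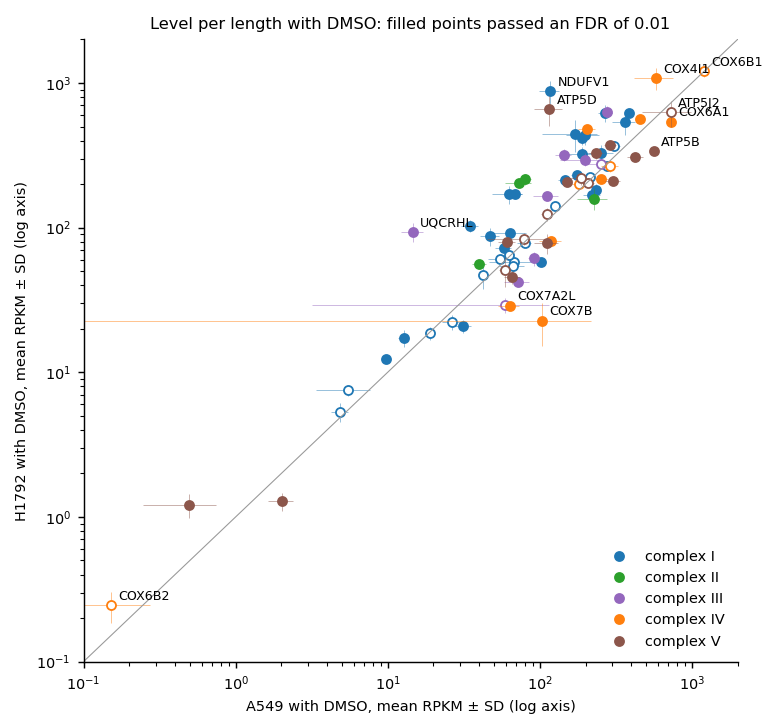
Mean RPKM with DMSO of each tested member in A549 (horizontal, n = 4) and H1792 (vertical, n = 3), both on log axes, with SD bars (a bar that reaches the left edge runs to or below it). Filled points passed an FDR of 0.01, the line marks equal levels, and NDUFV1, ATP5D and UQCRHL lie farthest above it.

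Genes that serve the respiratory chain without being members were read from lists of known factors. Of 55 assembly factors of complexes I to V, 5 rose and 4 fell in A549, where 35% of all genes were called, and 5 rose and 12 fell in H1792, where 35.1% were. Without A549 DMSO replicate 1, 7 rose and 8 fell. SURF1, needed to build complex IV, rose in A549 (log2 fold change 0.78 ± 0.11 SE, adjusted p = 4.42e-05), and did not pass in H1792 (log2 fold change 0.21 ± 0.07 SE, adjusted p = 0.022). UQCC1, a complex III assembly factor, also rose in A549 (log2 fold change 0.46 ± 0.09 SE, adjusted p = 0.000653). ATPAF2, a chaperone of the ATP synthase alpha subunit, rose in A549 (log2 fold change 0.65 ± 0.12 SE, adjusted p = 0.00059) and with GC corrected did not pass (0.38, adjusted p = 0.0127). NDUFAF3, which acts early in complex I assembly, rose in A549 (log2 fold change 0.48 ± 0.10 SE, adjusted p = 0.000932) and in H1792 (log2 fold change 0.53 ± 0.06 SE, adjusted p = 4.2e-05), and with GC corrected its change in A549 was 0.13, adjusted p = 0.224.

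In H1792 the largest rise among complex I assembly factors was NDUFAF2 (log2 fold change 0.73 ± 0.07 SE, adjusted p = 2.79e-05) and the largest fall TMEM186 (log2 fold change -0.57 ± 0.09 SE, adjusted p = 0.000657). TTC19, which keeps the Rieske protein of complex III in turnover, fell in H1792 (log2 fold change -1.04 ± 0.11 SE, adjusted p = 4.32e-05). SDHAF3, a complex II assembly factor, fell too (log2 fold change -0.46 ± 0.10 SE, adjusted p = 0.00402), and with GC corrected was at 0.11, adjusted p = 0.43. TMEM70, which helps to form the ATP synthase c-ring, fell in A549 (log2 fold change -0.52 ± 0.12 SE, adjusted p = 0.00282) and in H1792 (log2 fold change -0.50 ± 0.10 SE, adjusted p = 0.00148). HIGD1A had the largest called fall among complex IV factors in both lines (log2 fold change -0.78 ± 0.21 SE, adjusted p = 0.00724 in A549 and log2 fold change -0.66 ± 0.12 SE, adjusted p = 0.00129 in H1792), and with GC corrected it passed in neither (-0.27, adjusted p = 0.271 and -0.18, adjusted p = 0.114). HIGD2A rose in A549 (log2 fold change 0.31 ± 0.07 SE, adjusted p = 0.00279) and in H1792 (log2 fold change 0.47 ± 0.06 SE, adjusted p = 0.000147), and with GC corrected its change in A549 was 0.11, adjusted p = 0.118.

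Of 7 subunits and carriers whose names fall outside the symbol rule, 2 rose and 1 fell in each line. Of all genes, 17.2% rose and 17.8% fell in A549, and 16.2% rose and 18.8% fell in H1792. With GC corrected, 1 of the 7 rose and 2 fell in A549, and 2 rose and 2 fell in H1792. ATPIF1, the inhibitor that stops the ATP synthase from running backwards, rose in A549 (log2 fold change 0.63 ± 0.09 SE, adjusted p = 4.4e-05) and in H1792 (log2 fold change 0.50 ± 0.06 SE, adjusted p = 8.36e-05). CYCS, which encodes cytochrome c, fell in A549 from 129.7 ± 15.3 to 78 ± 5.37 CPM (SD, n = 4, log2 fold change -0.74 ± 0.09 SE, adjusted p = 1.3e-05) and did not pass in H1792 (log2 fold change -0.13 ± 0.07 SE, adjusted p = 0.153). The interaction for CYCS passed (adjusted p = 0.00447). NDUFA4L2, a paralog of NDUFA4 known from hypoxia, rose in A549 (log2 fold change 0.79 ± 0.17 SE, adjusted p = 0.00132) and with GC corrected did not pass (0.35, adjusted p = 0.121). C14orf2, a small ATP synthase subunit, fell in H1792 (log2 fold change -0.80 ± 0.16 SE, adjusted p = 0.00177).

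Regulators of mitochondrial biogenesis and of mitochondrial DNA expression mostly fell where they passed. Of 19 in A549, 1 rose and 5 fell with a median log2 fold change of -0.36, and of 18 in H1792, none rose and 8 fell with a median of -0.31, against -0.01 and 0.01 over all genes, of which 17.8% and 18.8% fell. With GC corrected the median was -0.12 in A549 and -0.28 in H1792. GABPA, the DNA-binding subunit of GABP, fell in A549 (log2 fold change -1.38 ± 0.35 SE, adjusted p = 0.00473) and in H1792 (log2 fold change -1.40 ± 0.28 SE, adjusted p = 0.00186) on a low level of 3.78 ± 1.52 and 2.31 ± 0.787 CPM with DMSO (SD, n = 4 and n = 3). With GC corrected it passed in neither line (-0.81, adjusted p = 0.0696 and -0.74, adjusted p = 0.0234). ESRRA, a nuclear receptor that drives respiratory genes, rose in A549 (log2 fold change 0.42 ± 0.10 SE, adjusted p = 0.00362) and with GC corrected was at -0.02, adjusted p = 0.845. Named after their values were seen, TFAM, which packages and transcribes mitochondrial DNA, fell in both (log2 fold change -0.85 ± 0.14 SE, adjusted p = 0.000141 in A549 and log2 fold change -0.86 ± 0.08 SE, adjusted p = 2.72e-05 in H1792) and NRF1 in A549 (log2 fold change -0.81 ± 0.14 SE, adjusted p = 0.000209), the last also with GC corrected (-0.80, adjusted p = 0.000224). The GC-corrected change of TFAM was -0.34, adjusted p = 0.0363 in A549 and -0.36, adjusted p = 0.00169 in H1792.

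The tricarboxylic acid cycle, which feeds complexes I and II, had 2 rising and 5 falling genes of 14 in A549 and 1 rising and 4 falling in H1792, against 17.2% rising and 17.8% falling over all genes in A549 and 16.2% and 18.8% in H1792. In A549 the counts became 0 and 3 with GC corrected and 1 and 9 with total counts. SUCLA2, a subunit of succinyl-CoA ligase, fell most in both (log2 fold change -1.25 ± 0.28 SE, adjusted p = 0.00201 in A549 and log2 fold change -1.79 ± 0.19 SE, adjusted p = 3.87e-05 in H1792). With GC corrected its change in A549 was -0.76, adjusted p = 0.026. IDH3G, a regulatory subunit of isocitrate dehydrogenase, rose in both (log2 fold change 0.53 ± 0.09 SE, adjusted p = 0.000259 and log2 fold change 0.44 ± 0.06 SE, adjusted p = 0.000156) and with GC corrected passed in neither (0.15, adjusted p = 0.158 and 0.13, adjusted p = 0.0274).

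Other large protein complexes were counted in the same way. Cytosolic ribosomal protein genes rose in 19 and fell in 2 of 82 tested in A549 and rose in 43 and fell in 8 of 83 in H1792, where 16.2% of all genes rose and 18.8% fell, against 17.2% and 17.8% in A549. In A549 that balance depended on the processing, with 10 that rose and 11 that fell when GC and length were corrected, 9 and 6 with total counts, and 35 and 4 without DMSO replicate 1. Mitochondrial ribosomal protein genes rose in 2 and fell in 13 of 76 in A549 and rose in 13 and fell in 13 of 76 in H1792. Without A549 DMSO replicate 1 they rose in 10 and fell in 16 in A549. Proteasome subunits rose in 3 and fell in 6 of 35 in A549 and rose in 6 and fell in 9 of 36 in H1792. These lists were set beside the OXPHOS genes as counts and were not tested against them.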

How the data were processed

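The authors deposited 1 table of raw read counts per gene for each cell line (unit: counts, whole numbers, not normalized), with 26760 genes for A549 and 26732 for H1792. STAR, HTSeq and the builds hg19 and GRCh37 are named in the submitters' processing notes, with versions and gene annotation not given in the sources used here, and the study tested with DESeq2 at an FDR of 0.01. In H1792, 28 entries named as dates (0.101 to 0.117% of counts) were left out. The 14 libraries were grouped by their titles.

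Genes were filtered with filterByExpr, scaled with TMM and tested with edgeR 4.0.16 (R 4.3.3) by quasi-likelihood within each line, and jointly for the interaction and for the lines with DMSO. The fits were checked on simulated data, with planted changes larger than most of those called here and with no GC trend or outlying library. That check therefore does not cover calls of small changes. CPM are TMM-scaled within a line. RPKM use joint TMM scaling and median lengths of coding transcripts in GENCODE for GRCh37, to which all 86 symbols matched. GC and length trends (splines with 5 degrees of freedom per library) were removed as alternatives, beside DESeq2 1.42.0, other scaling and filters, a replicate block and leaving out libraries. Promoters came from RefSeq. Depth was 4254644 to 79984064 counts per library. Replicates differed beyond counting noise (chi-square per gene of at least 3.31).

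Genes were named by rule: per line and complex the largest called rise and fall with a mean of at least 20 counts, the largest interactions, isoform families, the 3 most abundant members per length, names that are no subunit, and the largest called rise and fall per gene list. Members called in both lines, and UQCRB, UQCRC1, UQCRH, SDHB, ATP5D, HIGD2A, TFAM and NRF1, were named after their values were seen. Whether counting used the strand is not given in the sources used here, so reads of overlapping genes may be shared. Members and lists were chosen with earlier results of these data known.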

Additional observations from a re-analysis of the deposited data

Results flagged for a closer look

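In groups of 4 libraries, a single library was set apart where its gap to the nearest other passed Dixon's 95% critical value for the group's range. Over 90 such checks in A549, chance gives about 1 in 20. The DMSO library of replicate 1, the smallest, was the one set apart for NDUFB5 (23.03 CPM, others 11.1 to 12.4), NDUFS8 (205 CPM, others 162 to 169), SDHB (102 CPM, others 67.7 to 71.6), UQCRB (97.1 CPM, others 16.3 to 25.7) and COX4I1 (702 CPM, others 404 to 422). The same library stood out in the summed level of all members (12584 CPM, others 10798 to 11049), of complex I (4191 CPM, others 3341 to 3480) and of complex III (1497 CPM, others 1120.1 to 1138). UQCRHL was highest in DMSO replicate 3 (23.3 CPM, others 16.7 to 17.7), and the sum of complex I was highest in AMG900 replicate 4 (4155 CPM, others 3872 to 3907).

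The effect of AMG900 differed between the lines by the interaction test for ATP5J (0.99 on the log2 scale), ATP5B (0.42), NDUFB9 (-0.61), NDUFC2 (-0.71) and UQCRHL (-1.32). The summed level of complex V was lower with AMG900 in every A549 library (ratio of means 0.892) and higher in every H1792 library (1.10), and that difference between the lines was not tested.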

How the results depend on the processing

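Of 198 alternative values for the counts and medians over the members, 165 stayed close to those reported. For every other one the cause was not tested. In A549, the 11 members that rose became 18 at an FDR of 0.05 and 18 in the joint fit, 7 with total counts, 7 with GC corrected and 5 with GC and length corrected, and ranged from 5 to 24 when 1 library was left out. The 7 that fell became 12 at an FDR of 0.05 (5 to 10 without 1 library). The lowest 5 that rose came without DMSO replicate 2 or 3 and the 24 without DMSO replicate 1, and leaving out any 1 AMG900 library gave 7. In H1792, the 13 that fell became 20 with GC corrected and 25 with GC and length corrected (7 to 17 without 1 library, with 7, 8 and 7 without AMG900 replicate 1, AMG900 replicate 2 and DMSO replicate 3), and the 25 that rose ranged from 19 to 35. Interactions higher in H1792 went from 2 to 8 at an FDR of 0.05, 7 with DESeq2, 4 with its size factors, 7 with GC corrected, 12 with GC and length corrected, 4 with no filter and 4 with total counts (2 to 6 without 1 library), and those lower from 3 to 6 at an FDR of 0.05 and 1 with GC corrected (2 to 9). With DMSO, 36 higher and 18 lower became 21 and 34 with GC and length corrected (34 to 42 and 13 to 18 without 1 library). The median of 0.0576 in H1792 became 0.0141 with GC and length corrected and -0.01 with total counts (0.0481 to 0.0904 without 1 library), and the median in A549 ranged from -0.022 to 0.0567.

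Signs turned for single genes with GC corrected, in H1792 for NDUFA13 (-0.186), NDUFA5 (0.7059), COX8A (-0.2091) and ATP5SL (-0.184), and in A549 for COX7A2L (0.3998). With GC and length corrected they turned in H1792 for NDUFA13 (-0.2201), NDUFA5 (0.7242), COX8A (-0.2277), ATP5G1 (-0.0023) and ATP5SL (-0.2649), in A549 for NDUFA3 (-0.057), NDUFS8 (-0.1076), COX6B1 (-0.0029) and ATP5G2 (-0.0296), and for the interaction of NDUFA3 (0.3537).

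Replicate numbers did not pair the samples: deviations of libraries with the same number correlated at -0.04 to 0.01 in A549 and -0.06 to 0.04 in H1792. With the replicate block, 8 members rose and 7 fell in A549, 23 rose and 12 fell in H1792, 2 interactions were higher and 2 lower, and 24 members were higher and 13 lower in H1792 with DMSO. Depth limits the low genes most, since 8 members in A549 and 6 in H1792 were below the count filter.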
